A study of Mus musculus with 8 samples.

Results

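The genes described here make sterols and fatty acids or control that synthesis. They are 30 mouse genes chosen by symbol, of 34745 genes in the deposited expression table: 7 enzymes of the mevalonate pathway, 11 of squalene and sterol formation, 5 regulators of the SREBP system, 1 sterol carrier and 6 enzymes of fatty acid synthesis. All 30 symbols were found, and 29 of the genes had enough counts to be tested. The exception was Scd1, a stearoyl-CoA desaturase, which had 0, 0 and 7 counts in the CLP libraries, 2, 0 and 0 in the ILCP libraries, and 29 and 1 in the ILC1/3P libraries.

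The mevalonate pathway condenses acetyl-CoA units into isoprenoids, which are joined into squalene, closed into lanosterol and trimmed to cholesterol. Fatty acid synthesis starts from the same cytosolic acetyl-CoA. Both are controlled by the SREBP transcription factors, which SCAP carries from the endoplasmic reticulum to the Golgi for cleavage when sterol is low, and which INSIG proteins hold back when sterol is high. Dividing lymphocytes use these pathways to build membranes.

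The libraries are bulk RNA-seq of cells sorted from the fetal liver of untreated wild-type B6 mice, all carrying 1 batch date. Every gate took live, lineage-negative CD45+ CD127+ CD25- cells. CLP (common lymphoid progenitors, 3 libraries) were gated as Flt3+. ILCP (innate lymphoid cell precursors, 3 libraries) were Flt3- and α4β7+ with PD-1 and without CD94, whereas ILC1/3P (2 libraries; the name points to ILC1 and ILC3) were Flt3- and α4β7+ with CD94 and without PD-1. An age of 6 to 8 weeks stands in the labels of all 8 samples, and they do not say whose age it is beside a fetal tissue. No label says that the libraries of a group came from separate animals, so the p-values reflect no more than the spread of these libraries, which may be technical.

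Total counts per library ran from 4991939 to 8082476, and the 30 genes together held 5201 to 12263 counts, or 0.0824% to 0.175% of a library. The gate gene Flt3 followed the labels. It was at 459 ± 96.1 CPM (read counts scaled to a common library size, as below) in CLP (SD, n = 3). In ILCP it was at 0.427 ± 0.739 (n = 3), and it was at 0 in both ILC1/3P libraries. Pdcd1, which encodes PD-1, was at 0 in all CLP libraries, 77.7 ± 31.4 CPM (n = 3) in ILCP and 13.8 ± 5.16 (n = 2) in ILC1/3P. Klrd1, which encodes CD94, was at 52.2 ± 12.4 CPM (n = 3), 44.7 ± 26.2 (n = 3) and 1407 ± 315 (n = 2) in the same order. Longer gene lists for each gate followed the labels only in part, and they are not specific to a single gate. The CLP list holds Il7r and Il2ra, which encode CD127 and a chain of CD25, on which all gates agree. The ILCP list holds Itga4 and Itgb7, which encode α4β7, also required in the ILC1/3P gate. The 5 listed for CLP summed to 1192 to 1389 CPM in CLP, 610 to 619 in ILCP and 242 to 273 in ILC1/3P. Their log2 fold changes against CLP ran from -10.0 to 8.64 in ILCP and from -14.6 to 6.92 in ILC1/3P. The 7 listed for ILCP summed to 449 to 705, 6006 to 6402 and 10426 to 14643 CPM, highest in ILC1/3P. The 6 listed for ILC1/3P summed to 50.8 to 78.4, 251 to 414 and 2928 to 4004. Composition differed most in ILC1/3P, where the trimmed-mean (TMM) factors that scale library sizes were 0.753 and 0.671, against 1.05 to 1.23 in the other 6 libraries. CPM are counts scaled by the TMM-adjusted library size. In bulk samples, fewer cells of a type and less RNA per cell cannot be told apart.

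The start-site regions are shown first, because SREBP proteins act at such sites together with the factors NF-Y and Sp1. RefSeq promoter entries (GRCm38.p6) matched 24 of the 30 genes, with 32 windows of 250 bases before an annotated start. Of 4 motifs searched on both strands, the sterol regulatory element TCACNCCAC was found in 3.12% of the 32 windows, which is 1 window, that of Hmgcs1. It was found in 1.05% of all 32851 windows in the table. The NF-Y box CCAAT was found in 62.5% of the windows of these genes and in 33.8% of all windows. For the Sp1 box GGGCGG the shares were 71.9% and 32.7%, and for the E-box CACGTG 15.6% and 6.02%. A match is a run of letters and not a measured binding site.

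A few of the windows are printed for members whose counts are described below: Hmgcs1 as the only window with the sterol element, Insig1 as the SREBP feedback gene, and Ebp as the enzyme with the highest level in ILC1/3P. Capitals mark motif matches on either strand, and no matches overlap. The Hmgcs1 window is chr13:119690101-119690350 on the plus strand, and 128 bases lie between the end of its sterol element and the RefSeq start. The Insig1 stretch is chr5:28071162-28071362 on the plus strand, which leaves out the 49 bases nearest the RefSeq start because an annotated exon covers them. The Ebp window is chrX:8193513-8193762, read on the minus strand.
Hmgcs1: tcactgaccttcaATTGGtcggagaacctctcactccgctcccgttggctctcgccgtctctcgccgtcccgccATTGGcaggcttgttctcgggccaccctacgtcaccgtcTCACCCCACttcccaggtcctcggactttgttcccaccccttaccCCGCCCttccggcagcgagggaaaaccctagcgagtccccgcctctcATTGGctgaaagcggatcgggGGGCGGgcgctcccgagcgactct
Insig1: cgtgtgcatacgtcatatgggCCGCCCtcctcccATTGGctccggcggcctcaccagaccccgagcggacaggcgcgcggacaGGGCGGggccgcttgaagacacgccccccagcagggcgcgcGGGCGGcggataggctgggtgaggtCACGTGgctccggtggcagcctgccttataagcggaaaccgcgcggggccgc
Ebp: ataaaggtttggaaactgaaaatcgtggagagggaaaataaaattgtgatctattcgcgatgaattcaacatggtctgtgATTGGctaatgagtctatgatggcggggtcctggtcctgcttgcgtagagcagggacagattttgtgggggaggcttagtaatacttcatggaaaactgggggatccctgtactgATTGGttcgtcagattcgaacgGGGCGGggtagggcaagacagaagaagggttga
The Hmgcs1 window held 3 CCAAT and 2 GGGCGG matches beside the sterol element. The Insig1 stretch held 1 CCAAT, 3 GGGCGG and 1 CACGTG match, and the Ebp window 2 CCAAT and 1 GGGCGG match.

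Levels of different genes were compared only per transcript length, in the authors' FPKM. In CLP the highest mean levels were those of Idi1 at 41.3 FPKM, Scd2 at 36.7, Ebp at 35.3 and Nsdhl at 34.6. The lowest were Lss at 0.0360 FPKM and Scd1 at 0.0777. In ILCP, Scd2 led at 51.5 FPKM, followed by Ebp at 46.9, Sc5d at 34.4 and Idi1 at 33.7. In ILC1/3P, Ebp stood first at 80.0 FPKM and Scd2 second at 24.4, while Idi1 was at 5.80.

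**Figure D1:**
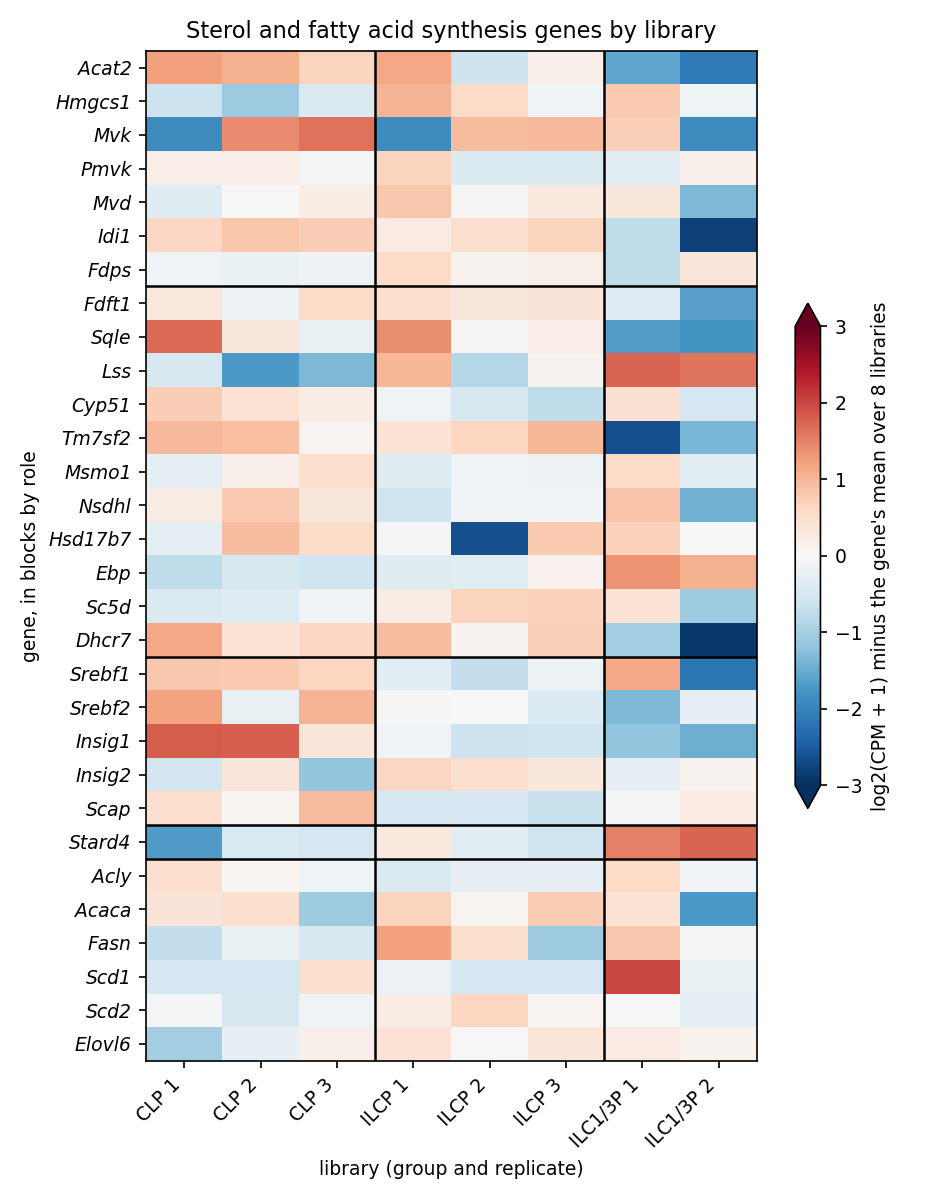
Each cell is log2(CPM + 1) of a gene in a library minus that gene's mean over the 8 libraries; rows are the 30 genes in blocks by role (mevalonate pathway, squalene and sterol steps, SREBP regulators, sterol transport, fatty acid synthesis) and columns are libraries by group. Acat2, Idi1 and Sqle are below their means in both ILC1/3P libraries, and Ebp and Stard4 are above theirs.

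None of the 29 tested passed edgeR's quasi-likelihood test in ILCP against CLP, in either direction, at an adjusted p under 0.05. Of all 13436 genes tested in this comparison, 3.91% passed as higher and 2.87% as lower (6.79% in either direction). The median log2 fold change of ILCP against CLP was -0.09 over the 29 genes and 0.01 over all genes. At an unadjusted p under 0.05 there were 6 genes, or 20.7% of 29 beside 20.1% of all genes, so the members differed about as often as genes in general. They were Hmgcs1, Sc5d and Scd2 with higher values in ILCP, and Cyp51, Insig1 and Scap with lower ones. DESeq2 called 3 of them, Hmgcs1 as higher and Insig1 and Scap as lower. Groups did not overlap in 5 genes that were higher and 6 that were lower in ILCP, or 17.2% and 20.7% of 29, beside 14.1% and 14.0% of all genes (28.2% in either direction).

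Hmgcs1 encodes the cytosolic HMG-CoA synthase, which makes the substrate of the rate-limiting reductase of the mevalonate pathway. Its levels were 25.7, 18.2 and 29.4 CPM in the CLP libraries, 82.8, 60.2 and 36.9 in ILCP, and 69.6 and 36.4 in ILC1/3P. All 5 libraries of the Flt3- populations lay above the 3 CLP libraries. The log2 fold change was 1.29 ± 0.41 (SE) for ILCP against CLP, with an edgeR quasi-likelihood adjusted p of 0.0915, and 1.12 ± 0.45 in the comparison of ILC1/3P with CLP, with an adjusted p of 0.0938. DESeq2 called both (adjusted p = 0.0288 and 0.0493), and edgeR with no filter on low counts called the first (0.0344).

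Insig1, on chr5:28071363-28078662, encodes an INSIG protein that retains SCAP when sterol is plentiful, and it is itself a known SREBP target. It stood at 27.1, 26.3 and 9.19 CPM in CLP, at 6.40, 4.15 and 4.22 in ILCP, and at 2.47 and 1.89 in ILC1/3P. The 3 groups did not overlap, with CLP highest and ILC1/3P lowest, although CLP 3 lay much nearer the ILCP libraries than CLP 1 and CLP 2 did. For ILCP against CLP the log2 fold change was -2.08 ± 0.71, which did not pass by edgeR's quasi-likelihood test (adjusted p = 0.114). DESeq2 and limma on log2(FPKM + 1) both called it.

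The other regulators moved less evenly. Scap levels were 29.6, 21.5 and 40.8 CPM in CLP, 14.4, 14.2 and 12.7 in ILCP, and 20.1 and 24.6 in ILC1/3P. ILCP was thus lowest for Scap, and ILC1/3P overlapped CLP. Its log2 fold change for ILCP against CLP was -1.15 ± 0.44 (edgeR quasi-likelihood adjusted p = 0.161), and DESeq2 called it lower. Srebf1, which encodes the SREBP most tied to fatty acid synthesis, stood at 26.1, 25.8 and 23.0 CPM in CLP and at 11.1, 8.43 and 13.0 in ILCP, with no overlap. In ILC1/3P it was at 33.6 CPM in library 1 and 2.36 in library 2, so that the pair lay on either side of all other libraries. Srebf2, which encodes the SREBP most tied to sterol synthesis, was at 42.6, 15.3 and 37.8 CPM in CLP, 18.3, 18.0 and 13.4 in ILCP, and 6.42 and 14.9 in ILC1/3P. CLP and ILCP overlapped for Srebf2, and both ILC1/3P libraries were below all CLP libraries. Insig2 overlapped between CLP and ILCP and was between 8.45 and 31.4 CPM in all libraries. None of Srebf1, Srebf2, Scap or Insig2 passed edgeR's test in any of the 3 comparisons. Srebf2 was called lower in ILC1/3P against CLP by DESeq2 (adjusted p = 0.0493), by limma on log2(FPKM + 1) (0.0203) and with library size alone (0.0243). Under limma and library size alone the median log2 fold change of all genes was itself -0.45 and -0.93. Without ILC1/3P 1, which leaves 1 library in that group, the Srebf1 log2 fold change in ILC1/3P against CLP was -3.39.

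**Figure D2:**
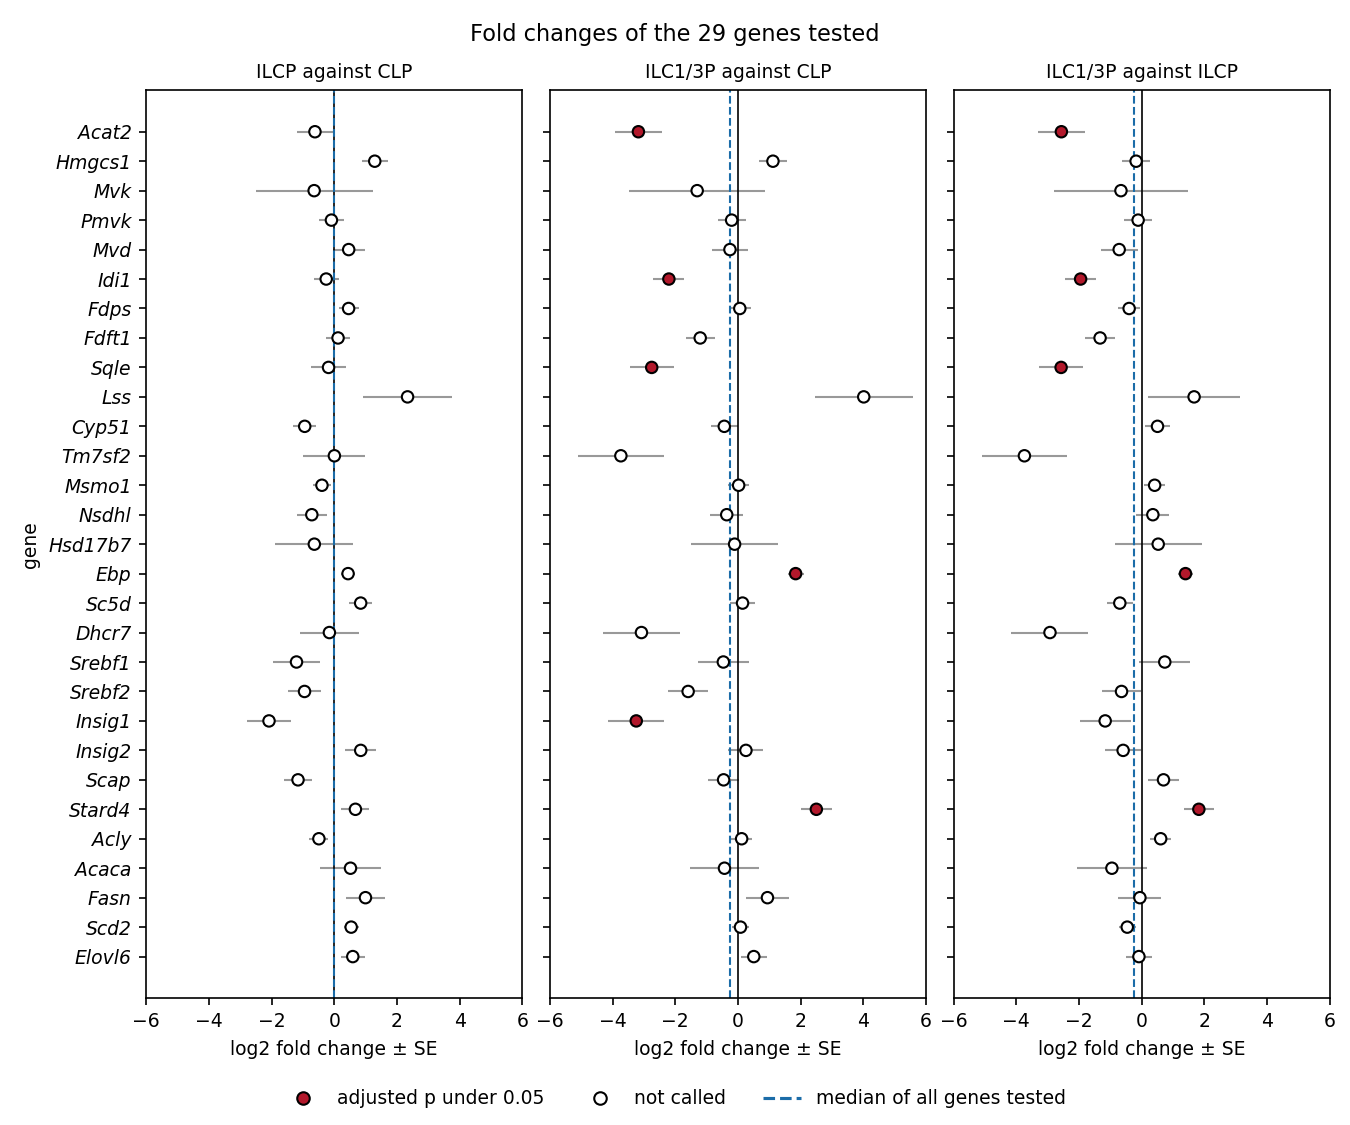
Points are log2 fold changes with their standard errors from edgeR for the 29 genes tested, in 3 panels for the 3 comparisons; filled points have an adjusted p under 0.05 and the dashed line is the median of all genes tested. No point is filled for ILCP against CLP, the ILC1/3P panels have 6 filled points beside CLP and 5 beside ILCP.

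ILC1/3P differed from CLP in 6 genes of the sterol branch and its control. Ebp and Stard4 were higher, by 3.58-fold and 5.66-fold. Acat2, Idi1, Sqle and Insig1 were lower, by 9.03-fold, 4.60-fold, 6.73-fold and 9.47-fold. None of the 5 fatty acid synthesis genes tested passed. These calls were 6.90% of the 29 genes as higher and 13.8% as lower, beside 11.8% and 11.7% of all genes tested (edgeR's quasi-likelihood test, adjusted p under 0.05), which are near the background (23.5% of all genes in either direction). The median log2 fold change was -0.25 over the 29 genes and -0.25 over all genes. Groups did not overlap for 5 genes that were higher and 8 that were lower in ILC1/3P, or 17.2% and 27.6%, beside 23.3% and 29.1% of all genes (52.4% in either direction).

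ILC1/3P differed from ILCP in 5 of these 6 genes. Ebp and Stard4 were higher, by 2.64-fold and 3.54-fold, and Acat2, Idi1 and Sqle were lower, by 5.90-fold, 3.86-fold and 5.94-fold. That is 6.90% of the 29 genes as higher and 10.3% as lower, beside 8.06% and 8.25% of all genes tested (16.3% in either direction), again near the background. The medians were -0.40 over the 29 genes and -0.23 over all genes on the log2 scale. Groups did not overlap for 5 genes that were higher and 9 that were lower, or 17.2% and 31.0%, beside 20.2% and 24.7% of all genes (44.8% in either direction). Both comparisons use the same ILC1/3P libraries, so their lists of called genes are not independent.

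How the libraries are scaled matters for these counts. With TMM factors, 50.3% of the genes called over the whole table in ILC1/3P against CLP were higher, and 49.4% against ILCP. With library size alone these shares were 25.2% and 18.1%, and with limma on log2(FPKM + 1) 25.8% and 21.8%. Library size alone moved the median log2 fold change of all genes to -0.93 against CLP and -0.86 against ILCP. With limma on log2(FPKM + 1) it was -0.45 and -0.41, so changes are read relative to that shift. Ebp and Stard4 still passed against CLP under both of these scalings, but neither passed against ILCP under either.

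**Figure D3:**
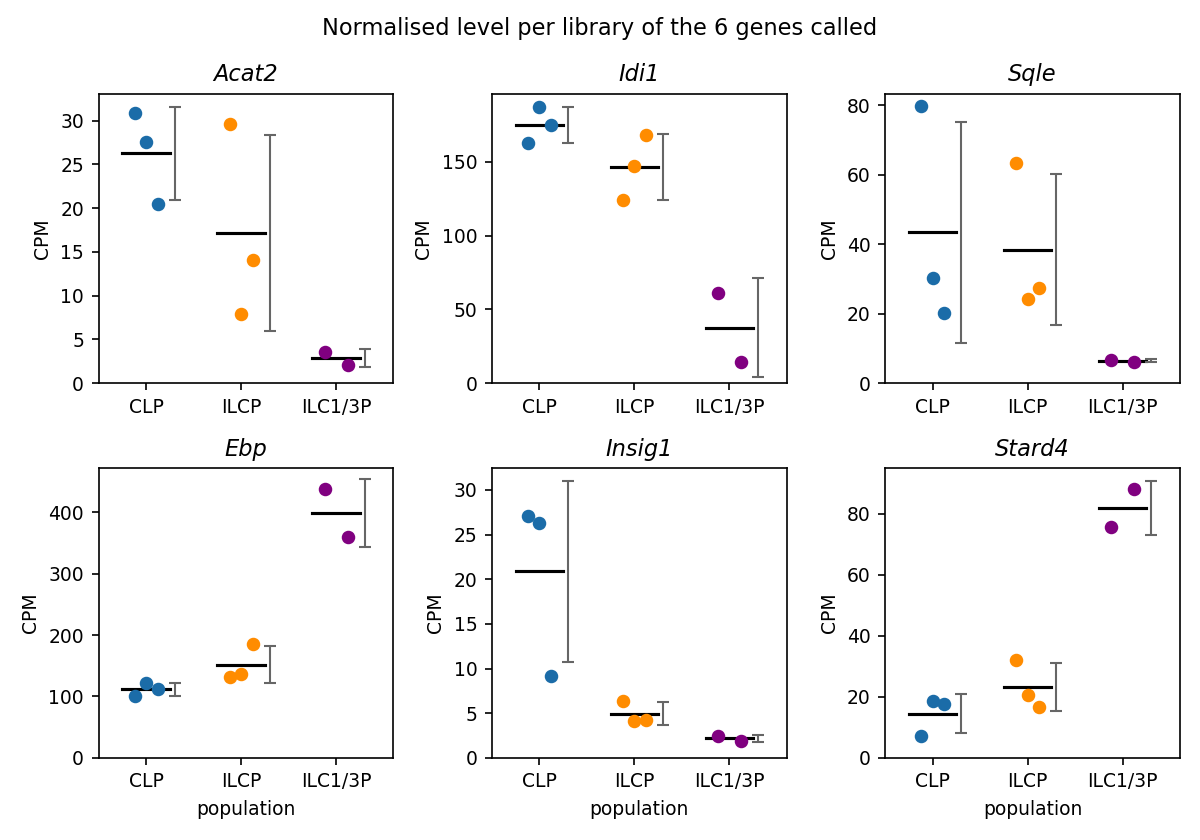
Points are CPM of single libraries on linear axes for the 6 genes that passed the test in at least 1 comparison, with a bar at the group mean and the SD beside it. For Ebp and Stard4 both ILC1/3P libraries lie above all 6 others, and for Acat2, Idi1, Sqle and Insig1 both lie below all 6 others.

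At the start of the mevalonate pathway, Acat2 encodes the cytosolic thiolase that joins acetyl-CoA into acetoacetyl-CoA. The gene lies on chr17:12942890-12960747 (mm10, minus strand). Its levels were 30.8, 27.6 and 20.5 CPM in CLP, 29.6, 7.88 and 14.1 in ILCP, and 3.62 and 2.13 in ILC1/3P. Both ILC1/3P libraries were below every other library, while CLP and ILCP overlapped. Acat2 fell by 3.17 ± 0.76 on the log2 scale against CLP and by 2.56 ± 0.74 against ILCP, with edgeR quasi-likelihood adjusted p of 0.0104 and 0.0361. The first call was lost without ILC1/3P 2 (adjusted p = 0.0638). The second was lost without any one of CLP 1, CLP 2, CLP 3, ILCP 1, ILCP 3, ILC1/3P 1 or ILC1/3P 2, with adjusted p from 0.0561 to 0.161, and without ILCP 1 the log2 fold change was -1.92. Acat2 shares near-identical sequence with Acat3 and Tcp1 in the GENCODE M21 transcripts, so its count is uncertain. Acat3 was between 25.3 and 47.9 CPM in all 8 libraries. Tcp1 was at 279 and 221 CPM in ILC1/3P and between 387 and 518 in the other 6, and was thus lowest in the same libraries as Acat2.

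Idi1 encodes isopentenyl-diphosphate isomerase, which interconverts the isoprenoid building blocks. Located on chr13:8885501-8892451, it was at 163, 187 and 175 CPM in CLP, 124, 147 and 169 in ILCP, and 61.4 and 14.2 in ILC1/3P. ILC1/3P was lowest, but its libraries differed from each other by more than those of any other group. Idi1 fell by 2.20 ± 0.49 on the log2 scale against CLP and by 1.95 ± 0.49 against ILCP (edgeR quasi-likelihood adjusted p = 0.00717 and 0.0184). Against CLP the log2 fold change was -3.63 without ILC1/3P 1 and -1.51 without ILC1/3P 2, and it passed in both cases. Against ILCP these values were -3.37 and -1.25, both passing, and the call was lost without ILCP 3 (adjusted p = 0.0621). Transcripts of Gm13502 and Gm35570 are near copies of Idi1, and its exons overlap those of another annotated gene, so this count too is uncertain.

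The other mevalonate enzymes did not pass in any comparison. Fdps, the farnesyl diphosphate synthase, was between 69.5 and 74.5 CPM in CLP, 86.0 and 120.5 in ILCP, and 47.2 and 103.5 in ILC1/3P. Pmvk and Mvd, the phosphomevalonate kinase and the mevalonate diphosphate decarboxylase, overlapped among all groups. Mvk, the mevalonate kinase, was at 0 in CLP 1, ILCP 1 and ILC1/3P 2 and at 5.10 to 10.4 CPM in the other 5 libraries. The summed level of the 7 mevalonate genes was 356 to 378 CPM in CLP, 359 to 459 in ILCP and 208 to 246 in ILC1/3P, so that ILC1/3P did not overlap the other groups. Without Idi1, the other 6 genes summed to 191 to 196 CPM in CLP, 205 to 335 in ILCP, and 184 and 193 in ILC1/3P, which then overlapped CLP.

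Sqle encodes squalene epoxidase, a rate-limiting enzyme that commits squalene to the sterol branch. On chr15:59315077-59331192, it was at 79.7, 30.4 and 20.3 CPM in CLP, 63.4, 24.3 and 27.5 in ILCP, and 6.74 and 6.15 in ILC1/3P. The ILC1/3P libraries were close to each other and below all others, while CLP 1 and ILCP 1 stood above the rest of their groups. Sqle fell by 2.75 ± 0.71 on the log2 scale against CLP and by 2.57 ± 0.70 against ILCP (edgeR quasi-likelihood adjusted p = 0.0152 and 0.0283). The first call was lost without CLP 1 (adjusted p = 0.0593, log2 fold change -1.97), ILC1/3P 1 (0.0597) or ILC1/3P 2 (0.0813). The second was lost without ILCP 1 (0.0986), ILC1/3P 1 (0.0903) or ILC1/3P 2 (0.128).

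Ebp moved the other way. It encodes the sterol isomerase known as emopamil-binding protein, which shifts a double bond late in the pathway, and lies on chrX:8185329-8193512 on the minus strand. Its levels were 100.1, 122 and 112 CPM in CLP, 132, 136 and 186 in ILCP, and 438 and 360.0 in ILC1/3P. The groups did not overlap, and both ILC1/3P libraries were far above the other 6. Ebp rose by 1.84 ± 0.25 on the log2 scale against CLP and by 1.40 ± 0.25 against ILCP (edgeR quasi-likelihood adjusted p = 0.000359 and 0.00379). Neither call was lost by leaving out any single library. Against ILCP the adjusted p was 0.0537 with library size alone, where the log2 fold change was 0.77, and 0.0571 with limma on log2(FPKM + 1).

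The remaining sterol enzymes did not pass edgeR's test in any comparison. Fdft1, the squalene synthase, was between 33.5 and 57.1 CPM in the CLP and ILCP libraries and at 28.1 and 11.3 in ILC1/3P. Tm7sf2, a sterol reductase, was at 5.63 to 11.5 CPM in CLP and ILCP and at 0 and 1.42 in ILC1/3P. Dhcr7, which makes cholesterol from its last precursor, was at 7.05 to 15.5 CPM in CLP and ILCP and at 2.63 and 0 in ILC1/3P. In all 3 genes the ILC1/3P libraries lay below the other 6, and the adjusted p ran from 0.0686 to 0.0956 against CLP and from 0.0768 to 0.136 against ILCP. DESeq2 called all 3 lower against CLP and against ILCP, with adjusted p from 0.00361 to 0.0435, and so did limma on log2(FPKM + 1), from 0.00815 to 0.0437. When ILC1/3P 2 was the 1 library of its group, edgeR's Fdft1 log2 fold changes were -2.01 against CLP and -2.13 against ILCP. Those of Dhcr7 were -9.28 and -9.12, and this library held 0 Dhcr7 counts. When ILC1/3P 1, with 0 Tm7sf2 counts, was the 1 library, those of Tm7sf2 were -8.999 and -8.991. The values for Dhcr7 and Tm7sf2 thus rest on 1 library without counts of the gene. Lss, the lanosterol synthase, had the opposite order, at 0 to 1.36 CPM in CLP, 0.829 to 5.55 in ILCP, and 10.0 and 8.98 in ILC1/3P. Its log2 fold change against CLP, 4.01 ± 1.56, rests on few counts and had an adjusted p of 0.0859 by edgeR and 0.0128 by DESeq2.

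Msmo1, Nsdhl and Cyp51 carry out the demethylation of lanosterol, and Sc5d a later desaturation. Msmo1 was between 96.3 and 186 CPM in all libraries, with overlap among all groups. Nsdhl was at 120.1 CPM in ILC1/3P 1 and 23.9 in ILC1/3P 2, beside 43.5 to 116 in the other 6. With ILC1/3P 2 as the 1 library of its group, the Nsdhl log2 fold change in ILC1/3P against CLP was -1.96. Sc5d was higher in all ILCP libraries (84.6 to 118 CPM) than in CLP (53.6 to 68.8), with a log2 fold change of 0.84 ± 0.37 and an adjusted p of 0.220. Sc5d was called lower in ILC1/3P against ILCP by limma on log2(FPKM + 1) (adjusted p = 0.0326), where the median log2 fold change of all genes was -0.41. With ILC1/3P 2 as the 1 library of its group, the Sc5d log2 fold change against ILCP by edgeR was -1.63. Cyp51 was lower in ILCP than in CLP, at 22.8 to 35.8 CPM in ILCP and 46.0 to 66.3 in CLP (-0.94 ± 0.38, adjusted p = 0.181). Hsd17b7 stayed at or below 10.9 CPM throughout. The 11 genes of squalene and sterol formation summed to 559 to 593 CPM in CLP, 541 to 610 in ILCP and 577 to 951 in ILC1/3P. All groups overlapped for this sum.

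Stard4 encodes a soluble carrier that moves sterol between membranes and is itself a known SREBP target. Its levels were 7.25, 18.6 and 17.6 CPM in CLP, 32.0, 20.6 and 16.8 in ILCP, and 75.7 and 88.2 in ILC1/3P. CLP and ILCP overlapped, and both ILC1/3P libraries were above all others. Stard4 rose by 2.50 ± 0.49 on the log2 scale against CLP and by 1.82 ± 0.49 against ILCP (edgeR quasi-likelihood adjusted p = 0.00356 and 0.0251). The call against CLP was kept without any single library. The call against ILCP was lost without ILCP 2 (adjusted p = 0.0584), ILCP 3 (0.0894), ILC1/3P 1 (0.0509) or ILC1/3P 2 (0.107), and with library size alone (0.125).

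Insig1 fell by 3.24 ± 0.89 on the log2 scale in ILC1/3P against CLP (edgeR quasi-likelihood adjusted p = 0.0207), from the values given above. That call was lost without CLP 1 (adjusted p = 0.0778), CLP 2 (0.0727), ILC1/3P 1 (0.0544) or ILC1/3P 2 (0.0842). Against ILCP the log2 fold change was -1.16 ± 0.82 and did not pass, at an adjusted p of 0.370. The sum of the 5 regulators was 115 to 139 CPM in CLP, 69.0 to 81.6 in ILCP and 65.2 to 79.1 in ILC1/3P. CLP thus lay above both of the Flt3- populations for this sum, which overlapped each other.

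None of the fatty acid genes passed edgeR's test in any comparison. Fasn, the fatty acid synthase, was at 9.75, 14.3 and 11.7 CPM in CLP, 40.5, 23.6 and 7.32 in ILCP, and 29.9 and 15.8 in ILC1/3P. Acaca, the acetyl-CoA carboxylase that commits carbon to the pathway, was at 7.37, 7.91 and 2.08 CPM in CLP, 9.24, 5.80 and 9.85 in ILCP, and 7.57 and 0.946 in ILC1/3P. Both genes overlapped between CLP and ILCP, and their ILCP or ILC1/3P libraries differed several-fold within a group. Scd2, the abundant desaturase of this set, was at 196, 146 and 185 CPM in CLP, 235, 317 and 214 in ILCP, and 205 and 166 in ILC1/3P. ILCP was highest for Scd2 without overlap with either group, and its log2 fold change against CLP was 0.54 ± 0.24 (edgeR quasi-likelihood adjusted p = 0.229). Scd2 was called lower in ILC1/3P against ILCP with library size alone (adjusted p = 0.0215) and with limma on log2(FPKM + 1) (0.0242). The median log2 fold changes of all genes under these were -0.86 and -0.41. Acly, which makes cytosolic acetyl-CoA from citrate, was between 51.1 and 105 CPM. Elovl6, an elongase, was between 19.2 and 55.0 CPM. The 6 fatty acid synthesis genes summed to 275 to 330 CPM in CLP, 342 to 445 in ILCP and 291 to 402 in ILC1/3P. ILC1/3P overlapped both other groups for this sum.

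The ILC1/3P libraries differed from each other more than other replicate pairs in these genes. Between them 12 of the 29 tested genes, or 41.4%, were more than 2-fold apart, against 33.8% of all genes tested. In the 6 replicate pairs of CLP and ILCP the share was 6.90% to 20.7% of the 29 genes, against 24.0% to 29.1% of all genes. Library 1 had the higher value in 22 of the 29 genes, or 75.9%, where 46.3% of all genes were higher in library 1. Ebp and Sqle differed little within the pair, while Srebf1, Acaca, Nsdhl and Idi1 were among the genes far apart.

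**Figure D4:**
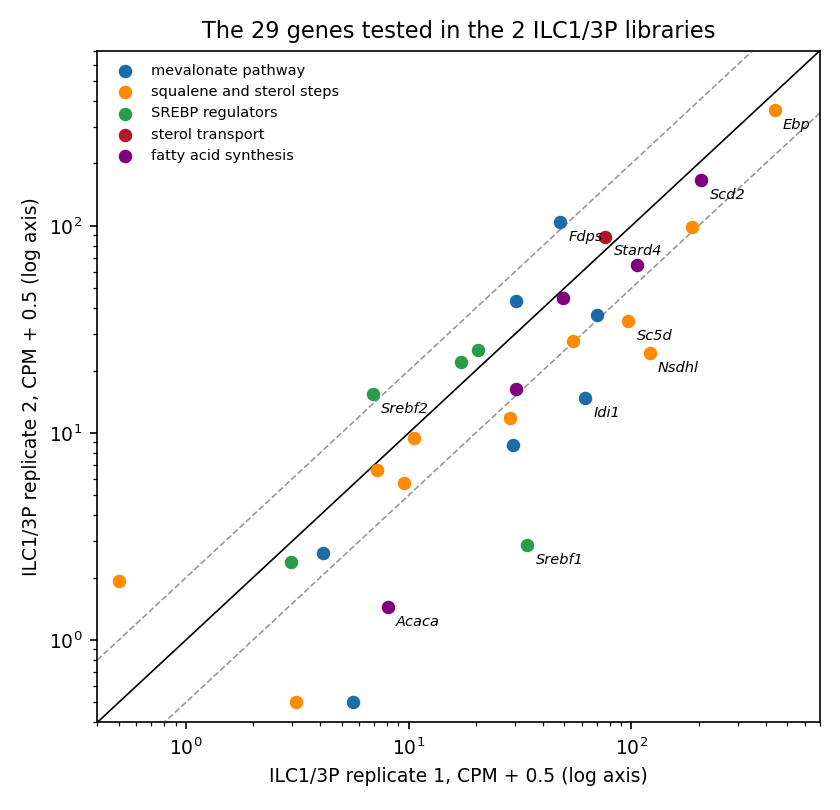
CPM of each of the 29 tested genes in ILC1/3P library 1 (horizontal) against library 2 (vertical) on log axes, with 0.5 CPM added and colours for the roles of the genes; the solid line marks equality and the dashed lines a 2-fold difference. Of the 29 genes, 22 lie below the line of equality and 12 lie outside the dashed lines.

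Markers of other states and cell types also moved with the groups. The 12 proliferation genes summed to 1371 to 1610 CPM in CLP, 1548 to 1861 in ILCP and 6357 to 7179 in ILC1/3P, with all 12 detected in every library. For ILC1/3P, edgeR's test called 7 of the 12 as higher against CLP, or 58.3% beside 11.8% of all genes. Against ILCP it called 9, or 75% beside 8.06%. The part of the proliferation genes in the results was not tested. The 8 B lineage genes summed to 2646 to 3413 CPM in CLP, 155 to 191 in ILCP and 129 to 170 in ILC1/3P, led by Cd79a and Cd79b. The 8 granulocyte and monocyte genes, led by Mpo and Prtn3, summed to 520 to 771, 7.18 to 9.10 and 7.33 to 40.0 CPM in the same order. The 5 of them tested did not all move with that sum. Log2 fold changes against CLP ran from -14.8 to 6.85 in ILCP and from -12.2 to 7.31 in ILC1/3P. The test called 0 higher and 2 lower in ILCP (40% lower, beside 2.87% of all genes). In ILC1/3P it called 1 higher and 1 lower, or 20% each, beside 11.8% and 11.7%. The part of the B lineage, granulocyte and monocyte genes in the higher CLP values of the regulators was not tested either.

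The liver itself makes much sterol and fatty acid, so hepatocyte genes were also measured. The 8 hepatocyte genes summed to 72.7 to 91.5 CPM in CLP, 28.2 to 74.0 in ILCP and 26.0 to 39.3 in ILC1/3P, led by Trf and Afp. Alb, the defining hepatocyte transcript, was at 3.72 ± 2.37 CPM (SD, n = 3) in CLP and at 0 in all ILCP and ILC1/3P libraries. The 8 erythroid genes, led by Hba-a1 and Hba-a2, summed to 7.36 to 16.5, 5.69 to 6.77 and 18.1 to 27.2 CPM, and the 8 macrophage genes, led by Csf1r and C1qc, to 19.7 to 40.8, 0.553 to 7.96 and 8.06 to 35.5 CPM. The macrophage gene Cd5l was at 0 in all libraries. The 8 endothelial and stromal genes, led by Pecam1 and Stab2, summed to 53.5 to 85.5, 107 to 133 and 58.4 to 113 CPM.

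A wider list of 65 genes of sterol handling, SREBP processing and fatty acid supply and oxidation had 56 genes with enough counts. In ILCP against CLP, 2 rose and 5 fell, or 3.57% and 8.93% of the 56, beside 3.91% and 2.87% of all genes tested, with a median log2 fold change of 0.04 beside 0.01. In ILC1/3P against CLP, 4 rose and 9 fell, or 7.14% and 16.1%, beside 11.8% and 11.7% of all genes, with a median of -0.51 beside -0.25. In ILC1/3P against ILCP, 2 rose and 5 fell, or 3.57% and 8.93%, beside 8.06% and 8.25% of all genes, with a median of -0.42 beside -0.23.

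Slc25a1, the mitochondrial citrate carrier that supplies carbon for cytosolic acetyl-CoA, fell in both Flt3- populations. It was at 81.8, 73.2 and 92.3 CPM in CLP, 14.6, 18.0 and 24.6 in ILCP, and 10.2 and 9.45 in ILC1/3P, with no overlap among groups. The log2 fold changes against CLP were -2.11 ± 0.35 in ILCP and -3.07 ± 0.43 in ILC1/3P (edgeR quasi-likelihood adjusted p = 0.00291 and 0.000432), and leaving out any library changed neither call. Elovl5, an elongase of polyunsaturated fatty acids, was at 163 to 234 CPM in CLP, 26.3 to 83.6 in ILCP, and 54.9 and 53.4 in ILC1/3P. It fell by 1.69 ± 0.39 on the log2 scale in ILCP and by 1.94 ± 0.46 in ILC1/3P (edgeR quasi-likelihood adjusted p = 0.0220 and 0.00993). The first call was lost without CLP 2, CLP 3 or ILCP 3 (adjusted p up to 0.0926) and the second without ILC1/3P 2 (0.0582).

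Fads2, the desaturase of the same polyunsaturated branch, was named after its values were seen. It was at 28.0, 9.38 and 12.9 CPM in CLP, 0.853, 0 and 0 in ILCP, and 0 in both ILC1/3P libraries, all CLP libraries lying above the others. Set against a floor of 3 counts pooled over the group, ILC1/3P was at least 63.0-fold lower than CLP. The calls passed in ILCP and ILC1/3P against CLP (edgeR quasi-likelihood adjusted p = 0.0437 and 0.0153). The first was lost without any one of CLP 1, CLP 2, CLP 3, ILCP 2 or ILCP 3 (adjusted p up to 0.218) and the second without CLP 1, ILC1/3P 1 or ILC1/3P 2 (up to 0.0740).

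Erg28, which holds the sterol demethylation enzymes together, was at 180 to 266 CPM in CLP, 207 to 340 in ILCP, and 744 and 572 in ILC1/3P. It rose by 1.57 ± 0.28 on the log2 scale in ILC1/3P against CLP and by 1.33 ± 0.28 against ILCP (edgeR quasi-likelihood adjusted p = 0.00203 and 0.00823). The second call was lost with library size alone (adjusted p = 0.0754) and with limma on log2(FPKM + 1) (0.0935). Lbr, a nuclear envelope protein that is also a sterol reductase, fell by 1.58 ± 0.33 in ILC1/3P against CLP, from 516 to 738 CPM in CLP to 256 and 141 (adjusted p = 0.00496). Acat1, the mitochondrial thiolase, which serves ketone and amino acid metabolism more than sterol synthesis, was at 116 to 195 CPM in CLP and 339 to 551 in ILCP and rose by 1.57 ± 0.29 (adjusted p = 0.00576).

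Lipa, the lysosomal acid lipase that frees cholesterol from its esters, was at 86.1, 143 and 112 CPM in CLP, 104, 133 and 160 in ILCP, and 29.1 and 10.4 in ILC1/3P. CLP and ILCP overlapped, and both ILC1/3P libraries were lower. Lipa fell by 2.51 ± 0.46 on the log2 scale against CLP and by 2.73 ± 0.46 against ILCP (edgeR quasi-likelihood adjusted p = 0.00220 and 0.00277). Without ILC1/3P 1 these log2 fold changes were -3.45 and -3.67, and no call was lost. Apoe, which encodes a lipoprotein ligand, was at 18.9 to 34.1 CPM in CLP, 77.8 to 227 in ILCP, and 41.8 and 142 in ILC1/3P. It rose by 2.73 ± 0.52 in ILCP against CLP (adjusted p = 0.00686) and by 1.93 ± 0.54 in ILC1/3P against CLP (0.0231), and the second call was lost without CLP 1, CLP 2 or ILC1/3P 2 (adjusted p up to 0.369, with a log2 fold change of 0.80 without ILC1/3P 2 and 2.56 without ILC1/3P 1). The second call was also lost with library size alone (log2 fold change 1.22, adjusted p = 0.120) and with limma on log2(FPKM + 1) (0.94, adjusted p = 0.224).

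Scarb1, a receptor for high-density lipoprotein, was at 45.7, 12.9 and 32.0 CPM in CLP, 1.28, 5.67 and 0.282 in ILCP, and 4.44 and 3.78 in ILC1/3P. It fell by 3.64 ± 0.96 on the log2 scale in ILCP against CLP (edgeR quasi-likelihood adjusted p = 0.0443). The call was lost without any one of CLP 1, CLP 2, CLP 3, ILCP 1 or ILCP 3 (adjusted p up to 0.180), and without ILCP 2 the log2 fold change was -5.26. Tmem55b, a lysosomal phosphoinositide phosphatase, was at 417 to 460 CPM in CLP, 183 to 202 in ILCP, and 285 and 440 in ILC1/3P. It fell by 1.23 ± 0.22 in ILCP against CLP (adjusted p = 0.00524). It rose by 0.94 ± 0.24 in ILC1/3P against ILCP (adjusted p = 0.0216), a call lost without ILCP 1, ILCP 3 or ILC1/3P 2 (adjusted p up to 0.199). It was also lost with library size alone (log2 fold change 0.29, adjusted p = 0.355) and with limma on log2(FPKM + 1) (0.26, adjusted p = 0.488).

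Hacd3, a dehydratase of very long chain fatty acid elongation, was at 73.2 to 99.9 CPM in CLP, 70.3 to 161 in ILCP, and 23.9 and 19.1 in ILC1/3P. It fell by 1.93 ± 0.41 on the log2 scale in ILC1/3P against CLP and by 2.59 ± 0.43 against ILCP (edgeR quasi-likelihood adjusted p = 0.00555 and 0.00246). Fabp5, a carrier of fatty acids in the cytosol, was at 36.8 to 69.5 CPM in CLP, 93.1 to 113 in ILCP, and 134 and 221 in ILC1/3P. It rose by 1.70 ± 0.34 in ILC1/3P against CLP (adjusted p = 0.00366). Neither gene lost a call when a single library was left out. Stard5, a sterol carrier, and Ube2g2, a ubiquitin-conjugating enzyme, were the other genes that fell in ILC1/3P against CLP outside fatty acid oxidation, by 1.90 ± 0.63 and 3.89 ± 1.16. The Stard5 call was lost without CLP 1, CLP 3, ILCP 1, ILCP 3 or ILC1/3P 2 (adjusted p up to 0.239), and without ILC1/3P 1 its log2 fold change was -2.90. The Ube2g2 call was lost without CLP 1, CLP 2 or ILC1/3P 1 (adjusted p up to 0.133), and without ILC1/3P 2 its log2 fold change was -6.00.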

How the data were processed

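Cells were sorted, and their bulk RNA was amplified with a SMARTer Ultra Low kit and sequenced on a NovaSeq6000, per the labels' protocols. The deposited table holds read counts and FPKM per gene for 8 libraries, with mm10 named in the submitters' processing notes; the FPKM are the authors' values per length and depth. The aligner, the counter, the annotation and any strand setting were not given in the sources used here. Counts were fitted in 1 model over all 8 libraries with edgeR 4.0.16 (R 4.3.3; filterByExpr, TMM, robust quasi-likelihood), and p-values were adjusted by Benjamini-Hochberg over 13436 genes, with a threshold of 0.05. The biological coefficient of variation was 0.679, on 5 residual degrees of freedom. Alternatives used DESeq2 1.42.0, limma 3.58.1 with a pseudocount of 1 FPKM, other scalings, no filter, a replicate block and each library left out. The fit was checked on simulated counts. FPKM served for levels between genes.

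The members and lists were chosen with earlier results of these data known. Named genes were the members called in at least 1 comparison or central to the pathway, up to 4 pathway genes a direction by smallest p, and the 2 most abundant markers of each other cell type. Scarb1, Acadvl, Stard5 and Ube2g2 passed the test but lie beyond those 4 by p, and they are named as well. Exons of 11 members overlap another gene in GENCODE M21, and 7 members have transcripts at least 95% identical over 200 bases or more to another gene, so their counts can be split or shared. Of the members, 23 lie at the locus M21 gives. No pair of libraries held identical values.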

Additional observations from a re-analysis of the deposited data

How the results depend on the processing

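The fit over all libraries called 0 members in ILCP against CLP, 2 higher and 4 lower in ILC1/3P against CLP, and 2 higher and 3 lower in ILC1/3P against ILCP. For ILCP against CLP, DESeq2 called 1 higher and 2 lower, limma on log2(FPKM + 1) 1 lower, and edgeR with no filter 1 higher. For ILC1/3P against CLP, DESeq2 called 4 higher and 8 lower, limma 8 lower and library size alone 7 lower. For ILC1/3P against ILCP, DESeq2 called 6 lower, limma 0 higher and 8 lower, library size alone 0 higher and 6 lower, and a fit of the 2 groups alone 1 lower. Leaving out 1 CLP or ILCP library at a time gave 2 to 4 lower in ILC1/3P against CLP. Against ILCP it gave 1 to 2 higher and 1 to 3 lower, and all these genes were called in the main fit too. Over all genes these fits called 1092 to 1558 lower against CLP, and 692 to 1066 higher and 689 to 956 lower against ILCP. Leaving out an ILC1/3P library leaves 1 in that group, and the set of genes called lower then differed from that of the main fit. No called value changed sign under these alternatives, and the cause of the differences was not tested. RLE size factors and edgeR without robust estimation kept every count of members within 1.5 times. Over all genes, DESeq2 called 929 higher and 806 lower of 13638 in ILCP against CLP, where edgeR called 526 and 386 of 13436. In the same comparison limma called 711 and 740 of 13436, and edgeR with no filter 754 and 602 of 18766. In ILC1/3P, DESeq2 called 2054 and 2351 of 13274 against CLP and 1500 and 1750 against ILCP. Library size alone called 946 and 2807 of 13436 against CLP and 474 and 2141 against ILCP. Limma called 1108 and 3183 and 662 and 2379, where edgeR with TMM called 1592 and 1571 and 1083 and 1109. The fit of the 2 groups alone called 986 and 803 of 12151 against ILCP. Larger counts of members under DESeq2, limma and library size alone thus came with larger counts over all genes.

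Replicate numbers recur across groups. Deviations of same-numbered libraries correlated at -0.03 to 0.09, and those of differently numbered ones at -0.09 to 0.03. The main fit did not take the numbers as pairs, and these values do not settle whether they are. With the replicate block, edgeR called 1 member higher in ILC1/3P against ILCP, beside 944 of all 13436 genes. Under this block Stard4 was lost as higher (edgeR adjusted p = 0.0674) and Acat2 as lower (0.0531). Scarb1 (0.0910) and Fads2 (0.0510) were lost under it in ILCP against CLP, and Ube2g2 (0.0604) in ILC1/3P against CLP. Fitting the 2 groups alone lost Acat2 (0.100), Idi1 (0.0514) and Acadvl (0.0509) against ILCP, and Stard5 (0.0582) and Ube2g2 (0.0559) against CLP. Depth limits genes near the floor: 3 counts were 0.340 to 0.709 CPM per library, and Scd1, Lss and Mvk were near it in several libraries.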

Other observations

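Genes of mitochondrial fatty acid oxidation, the route that breaks down what the synthesis genes build, were measured beside them. None of the 8 tested passed in ILCP against CLP by edgeR's quasi-likelihood test (2, or 25%, at an unadjusted p under 0.05, beside 20.1% of all genes). In ILC1/3P against CLP, 1 rose and 1 fell, or 12.5% each, beside 11.8% and 11.7% of all genes, and 3 fell against ILCP, or 37.5% beside 8.25%. Acadm, the medium-chain acyl-CoA dehydrogenase, was at 126 to 170 CPM in CLP, 91.5 to 169 in ILCP, and 60.0 and 35.5 in ILC1/3P, below all other libraries. It fell by 1.58 ± 0.36 on the log2 scale against CLP and by 1.39 ± 0.36 against ILCP (edgeR quasi-likelihood adjusted p = 0.00812 and 0.0212). Both calls were lost without ILC1/3P 2 (adjusted p = 0.0701 and 0.149), and the second also without ILCP 1 (0.0780).

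Acadl, the long-chain dehydrogenase, was at 35.1 to 50.1 CPM in CLP, 52.0 to 89.3 in ILCP, and 97.1 and 149 in ILC1/3P. It rose by 1.48 ± 0.35 on the log2 scale in ILC1/3P against CLP (edgeR quasi-likelihood adjusted p = 0.00938), a call lost without ILC1/3P 2 (0.0873), with library size alone (log2 fold change 0.78, adjusted p = 0.134) and with limma on log2(FPKM + 1) (0.77, adjusted p = 0.110). Acadvl, the very-long-chain dehydrogenase, was at 23.7 to 36.6 CPM in CLP, 43.4 to 72.4 in ILCP, and 20.4 and 6.85 in ILC1/3P. It fell by 2.00 ± 0.54 against ILCP (adjusted p = 0.0271), which was lost without ILCP 1, ILCP 3 or ILC1/3P 2 (adjusted p up to 0.140), and was -2.996 without ILC1/3P 1. Etfdh, which passes electrons from these enzymes to the respiratory chain, was at 134 to 158 CPM in ILCP and at 77.0 and 37.8 in ILC1/3P. It fell by 1.37 ± 0.34 (adjusted p = 0.0195), which was lost without ILCP 3 (0.0612) or ILC1/3P 2 (0.125), and was -1.97 without ILC1/3P 1.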
